A study of Mus musculus with 6 samples.

Results

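Interferon-stimulated genes and sensors of foreign RNA and DNA were examined in mouse hearts after delivery of a base editor by adeno-associated virus (AAV). The genes were taken from a list of 41 symbols, and 41 of 41 were among the 35976 genes of the count table. Hearts of mice with WT genotype were compared in groups of 3 libraries. The edited group had received AAV-MYL2-TadA8e-Sauri-U6-Camk2d sgRNA7: a viral vector in which the MYL2 promoter, active in heart muscle, drives the adenine deaminase TadA8e with the Cas9 named Sauri, and a U6 promoter drives a guide against Camk2d. The control group received no treatment, so the virus, the editor, the guide and the edit were absent together and cannot be told apart here. Age, sex, dose and the time after delivery are not given in the labels, and nothing says that each library is a separate animal, so p-values measure the spread between these libraries.

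Cells recognise viral nucleic acids through sensors in the cytosol and in endosomes. These sensors activate the factors IRF3 and IRF7, which switch on interferon genes. Secreted interferon binds its receptors and activates a complex, with STAT2 and IRF9 among its parts, that binds the interferon-stimulated response element in the promoters of antiviral genes. TLR9, which senses unmethylated CpG DNA in endosomes and signals through MYD88, is known as a sensor of adeno-associated virus genomes.

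Total counts per library lay between 17062412 and 23097998. Camk2d, the targeted gene, was at 226, 220 and 224 CPM (counts per 1000000 reads of the library, with library sizes scaled by TMM factors) in controls and at 138, 130 and 164 CPM in edited hearts, so it was lower in every edited library. Its log2 change was -0.63 (SE 0.07; adjusted p = 0.000476, edgeR's quasi-likelihood test). Some libraries stood apart. Control 1 had Xist at 574 CPM and the Y-linked genes Ddx3y, Uty, Kdm5d and Eif2s3y at a count of 0, whereas Xist was at most 1.10 CPM in the other 5 libraries. Summed atrial muscle markers were at 42.2 and 20.1 CPM in controls 1 and 3 and between 1164 and 2679 CPM in the other 4 libraries. Summed cardiomyocyte markers were at 63744 to 68370 CPM in edited hearts and 75946 to 77992 CPM in controls. Of the 8, 4 were called lower at an adjusted p below 0.05 in edgeR's test (Tnnt2, Mb, Tnni3 and Myh6), beside 4.74% of all tested genes. The estimates of 8 of 8 were below 0, and 7 had an unadjusted p below 0.05, beside 24.4% of all tested genes. In bulk tissue, fewer cells of a type and less RNA per cell cannot be told apart.

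Promoter sequence was searched for the core of the element that the interferon complex binds. A match does not show binding, and a gene without an exact match in the searched window may still carry the element. RefSeq promoters of build GRCm38.p6, from 250 bases before to 50 bases after each start, were at hand for 32 of the 41 genes. The core of the response element was searched as GAAA, any 2 bases and GAAA again, on both strands. It was found in 18 of these 32 promoters (56.2%), against 3.99% of 27025 genes in the same promoter table. The core of the gamma-activated site, TTCNNNGAA, which reads the same on both strands and serves the response to type II interferon, was in 12 of 32 (37.5%), against 9.55% of all genes. Further genes of the pathway, from the lists described below, held the response element core in 27.2% of 92 promoters and TTCNNNGAA in 22.8%. Both motifs were in 7 of the 32 promoters, and their matches overlapped in 3. A response element match lay upstream of the start in 14 of the 18 genes, and 8 genes had more than 1 match. The following 40-base windows, from genes of different roles and outside the exons of the annotations used, show matches to the response element core in capitals, 5′ to 3′ on the gene's strand.
Ifit1, chr19:34640770-34640809, plus strand: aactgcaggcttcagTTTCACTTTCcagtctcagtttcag
Oas3, chr5:120777710-120777749, minus strand: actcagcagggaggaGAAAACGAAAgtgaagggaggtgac
Isg15, chr4:156200872-156200911, minus strand: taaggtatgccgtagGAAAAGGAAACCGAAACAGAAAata
Stat2, chr10:128270261-128270300, plus strand: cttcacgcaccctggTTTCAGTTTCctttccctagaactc
Gbp7, chr3:142530268-142530307, plus strand: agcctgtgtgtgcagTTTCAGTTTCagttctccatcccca
Igtp, chr11:58199507-58199546, plus strand: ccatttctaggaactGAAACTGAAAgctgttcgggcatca
Bst2, chr8:71537578-71537617, minus strand: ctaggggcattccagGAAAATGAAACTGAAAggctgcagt
Rsad2, chr12:26456548-26456587, minus strand: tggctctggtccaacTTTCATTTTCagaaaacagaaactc

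Isg15 holds a run of 3 overlapping matches, and Bst2 an overlapping pair. Ifit2 was the 1 member called higher in edgeR's test, a call that held in 7 of 15 alternatives. It has 2 starts in the promoter table. An exact match to the response element core was in neither of its windows, and 1 match to TTCNNNGAA lay from -241 to -233.

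**Figure D1:**
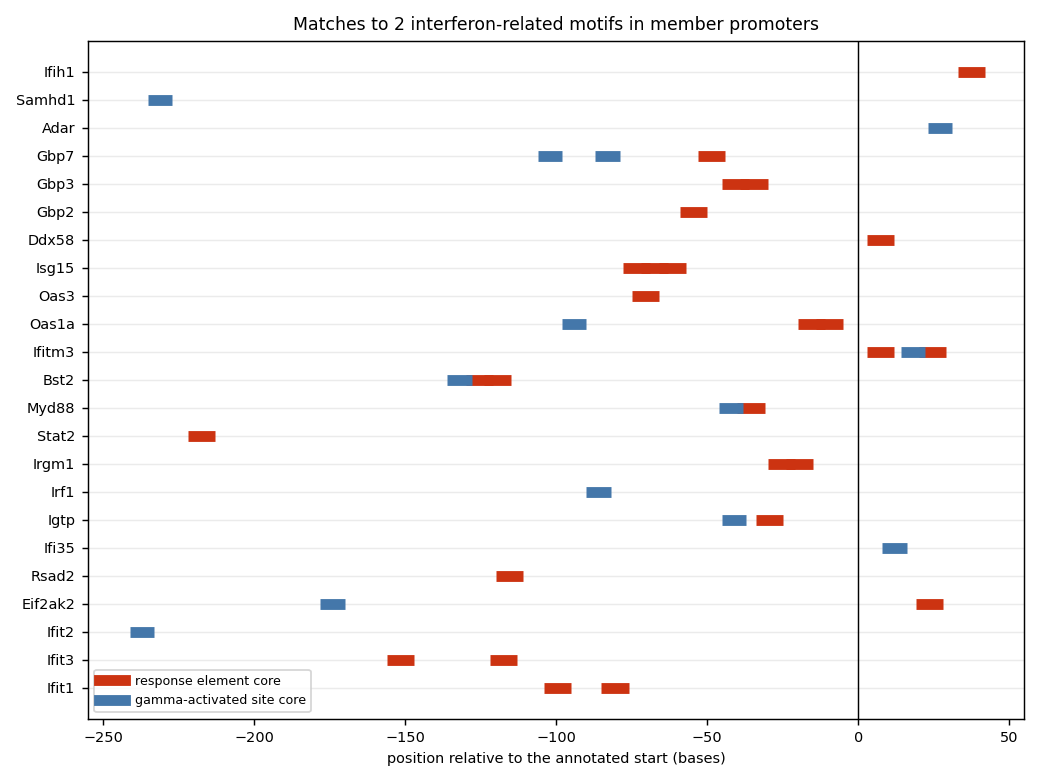
Matches to the response element core (red) and the gamma-activated site core (blue) in the promoters of the genes that hold at least 1, by distance in bases from the annotated start (vertical line at 0). Red matches lie between -222 and 42, and the Ifit2 row holds 1 blue match from -241 to -233.

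Between edited and control hearts, 1 of these genes was called. Of the 41 genes, 36 had enough reads to be tested. Ifit2 rose, and it was the 1 member past the threshold of 0.05 on the adjusted p in edgeR's test. That is 2.78% of the tested members, beside 9.66% of all 14879 tested genes (4.93% called higher, 4.74% lower). At an unadjusted p below 0.05 there were 4 members, Ifit2 and Parp9 higher and Igtp and Oas2 lower, beside 24.4% of all tested genes. The shares of 9.66% and 24.4% over all tested genes also stand beside the counts given below for each role and list. In the lower direction edgeR called 0 members, as did DESeq2 and limma voom, and 2 members had an unadjusted p below 0.05. The estimated change was above 0 for 16 members and below 0 for 20. The median log2 change was -0.02 over the tested members and 0.00125 over all tested genes.

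How large a change these data leave room for is given by the intervals. For 36 of 36 tested members the 95% interval of the fold change lay within 2-fold in either direction, as it did for 89.1% of all tested genes. For 29 of 36 it lay within 1.5-fold, beside 73.5% of all tested genes. The upper bound was below 2-fold for 36 of 36 members and below 1.5-fold for 32, beside 92.4% and 81.5% of all tested genes. The highest upper bound was 1.89-fold, for Ifit1, a gene with 1.04 to 2.23 CPM in any library. In the test for a change above 1.5-fold, 0 members were called by edgeR, beside 0.289% of all tested genes. Without controls 1 and 3, a setting chosen after seeing the data, 1 control remained, and the median log2 change of the members was -0.0078. With the atrial gene Myl7 as a covariate, also added later, 34 of 36 tested members had an interval within 2-fold and 25 within 1.5-fold. Under that covariate 0 members were called by edgeR, beside 126 of all 14879 tested genes.

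**Figure D2:**
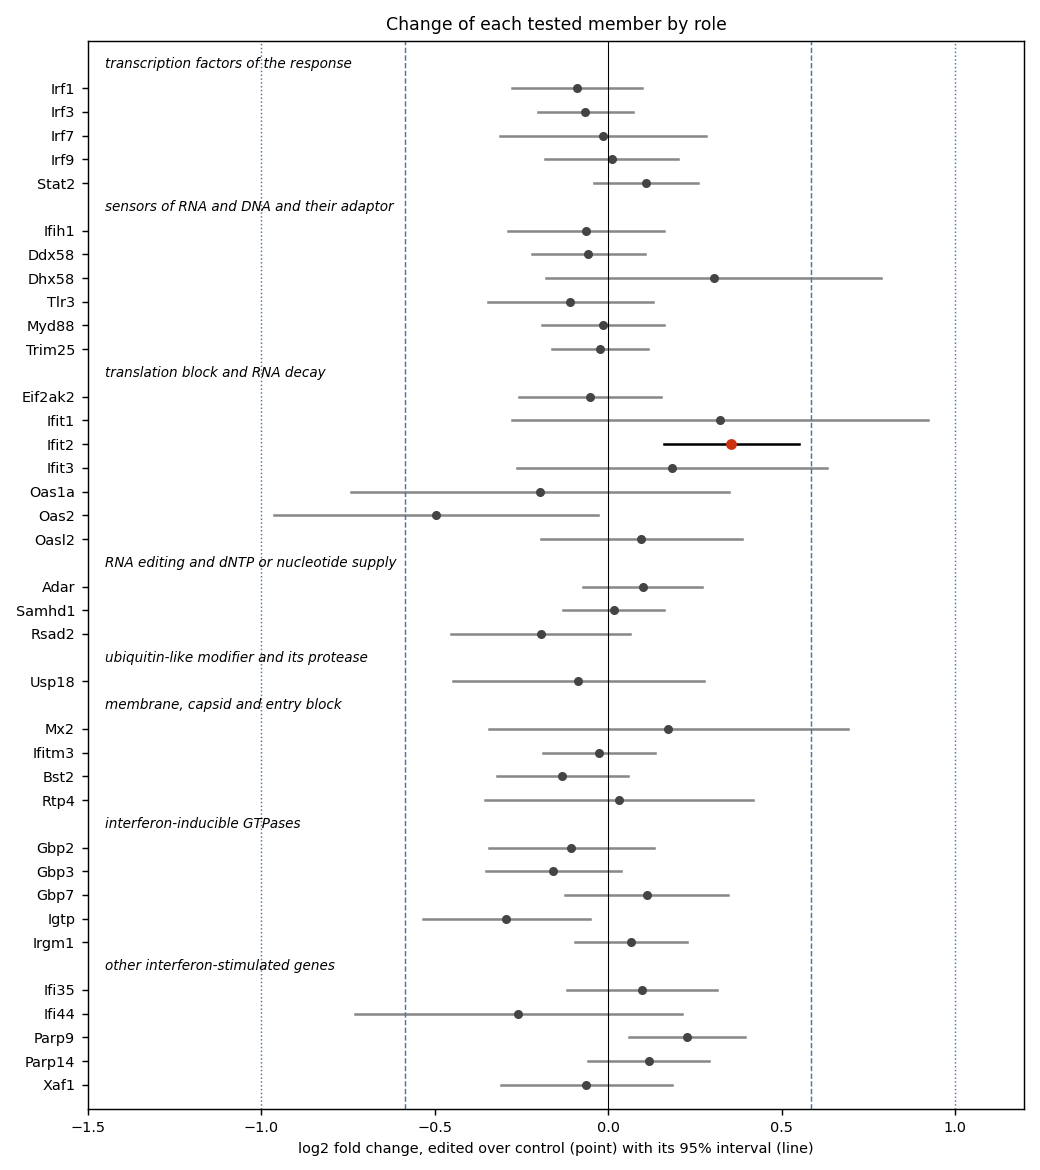
Log2 fold change of each of the 36 tested genes, edited over control (points), with its 95% interval (horizontal lines), grouped by role; dashed lines mark 1.5-fold and dotted lines 2-fold. Ifit2 (red) was the gene past the threshold, and no interval reaches a dotted line.

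The levels of the 41 genes summed to 598, 560 and 573 CPM in controls 1, 2 and 3 and to 563, 573 and 599 CPM in edited 1, 2 and 3. The groups overlapped, with means of 577 ± 19.3 and 578 ± 18.9 CPM (SD, n = 3). The libraries of a group differed more than the groups did. Edited 3 held the highest level of the 3 edited hearts for 20 of the 36 tested genes, and control 1 was highest among controls, also for 20. Edited 1 had the lowest level of all 6 libraries for 13 genes and edited 3 for 0. Relative to the control mean, the median of the tested members was -0.09 in edited 1, -0.0041 in edited 2 and 0.03 in edited 3 on the log2 scale, while the median over all genes stayed between -0.002 and 0.0064 in every library.

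**Figure D3:**
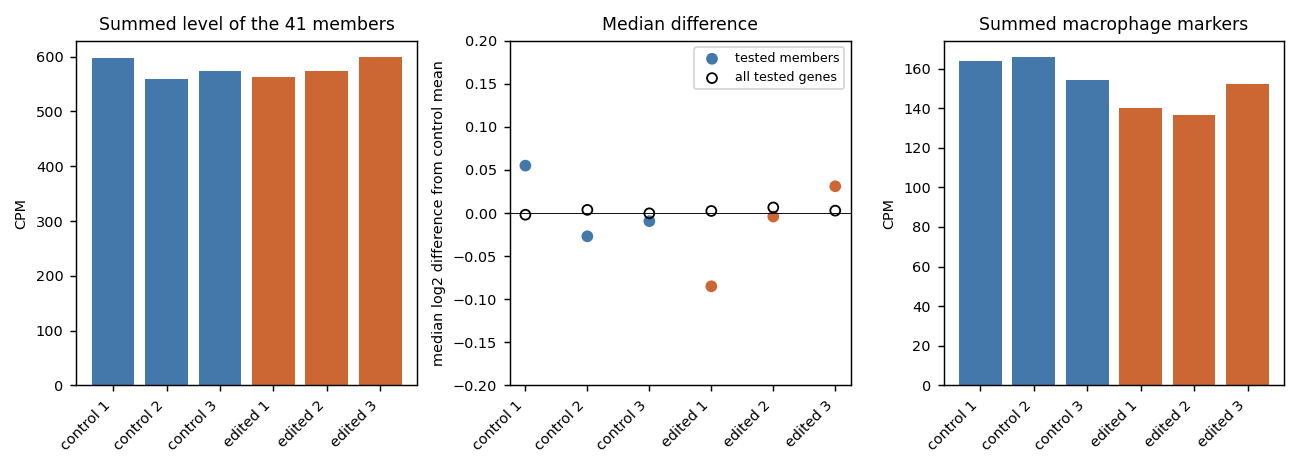
Per library, controls in blue and edited hearts in orange: summed CPM of the 41 genes (left), median log2 difference from the control mean for the tested members (filled) and all tested genes (open; middle), and summed CPM of 12 macrophage and monocyte markers (right). Member sums run from 560 to 599 CPM in both colours, while the macrophage sums are 137 to 152 CPM in edited hearts and 154 to 166 CPM in controls.

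Groups did not overlap for 5 of the tested members (13.9%, beside 29.3% of all tested genes). Ifit2, Parp9, Dhx58 and Irgm1 were higher in every edited library than in any control, and Igtp was lower. Ranked by control level per kilobase of exon, the most abundant genes were Ifitm3 (72.1 CPM per kilobase), Bst2 (24.8), Irf3 (19.4), Ifi35 (9.92) and Myd88 (9.82). These levels spanned a wide range, down to 0.541 CPM per kilobase for Ifit1 among the tested members.

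**Figure D4:**
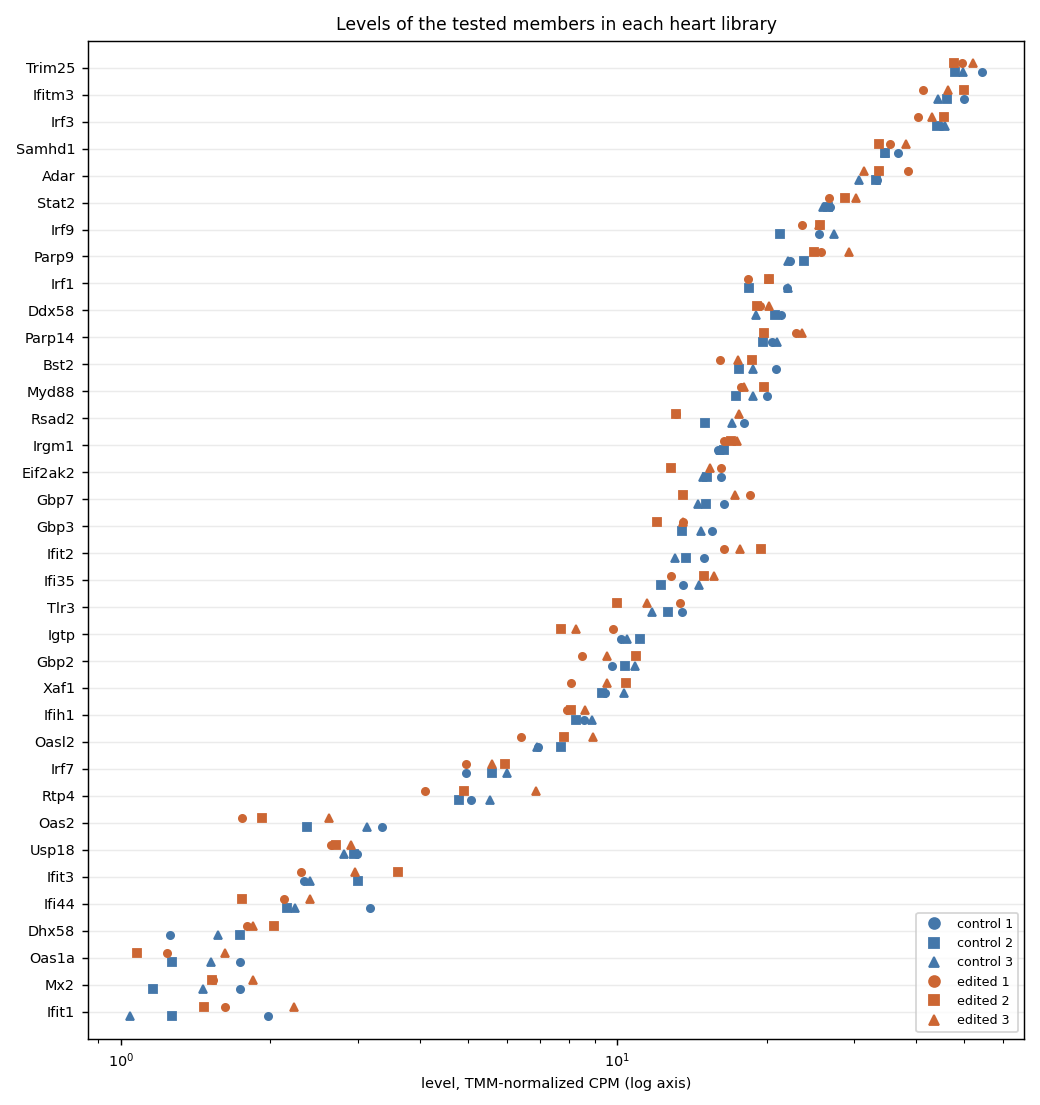
Level of each of the 36 tested genes in CPM (log axis) in the 6 libraries, ordered by control mean; blue symbols are controls and orange symbols edited hearts, with circles, squares and triangles for libraries 1, 2 and 3. The symbols of both colours intermingle for most genes, and the Ifit2 row shows 3 orange symbols to the right of the blue ones.

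Transcription factors of the response came first, with 5 genes tested and 0 called by edgeR. Irf3, the factor that sensors activate first, was at 44.9, 44.1 and 45.8 CPM in controls and 40.3, 45.6 and 43.1 CPM in edited hearts. Irf7, which amplifies interferon production and is itself interferon-induced, was at 4.96, 5.58 and 6.00 CPM in controls and 4.95, 5.94 and 5.58 CPM in edited hearts. The groups overlapped for both genes. Irf9 and Stat2, of the complex that binds the response element, had log2 changes of 0.01 (SE 0.09) and 0.11 (SE 0.07). Irf1, which is induced chiefly by type II interferon, had -0.09 (SE 0.09). These 5 genes did not pass edgeR's threshold (adjusted p 0.366 to 0.965), 0 had an unadjusted p below 0.05, and the upper bounds of their intervals reached at most 1.22-fold.

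Among the sensors (6 of 8 genes tested, 0 called by edgeR and 0 at an unadjusted p below 0.05), the RNA helicases of the cytosol had overlapping or nearly overlapping groups. Ifih1 (MDA5, a sensor of long double-stranded RNA) was at 8.55, 8.27 and 8.87 CPM in controls and 7.93, 8.09 and 8.60 CPM in edited hearts. Ddx58 (RIG-I, a sensor of triphosphate RNA ends) was at 21.4, 20.8 and 19.0 CPM against 19.4, 19.2 and 20.2 CPM. Both genes had overlapping groups. Dhx58 (LGP2, a regulator of the other helicases) was scarcer, at 1.26, 1.74 and 1.57 CPM against 1.79, 2.04 and 1.84 CPM. Its groups did not overlap, but the log2 change of 0.30 had an SE of 0.22 and did not pass (adjusted p = 0.449, edgeR). Trim25, the ubiquitin ligase that acts on RIG-I, had a log2 change of -0.02 (SE 0.06).

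The endosomal route was represented by Tlr3, Tlr9 and Myd88. Tlr3, a sensor of double-stranded RNA, had 13.52, 12.64 and 11.75 CPM in controls and 13.39, 10.01 and 11.50 CPM in edited hearts, with overlap. Myd88, the adaptor of TLR9, had 20.04, 17.33 and 18.74 CPM against 17.78, 19.73 and 18.04 CPM (log2 -0.01, SE 0.08). Tlr9 itself had too few reads for the test: 10, 10 and 8 counts in controls and 11, 6 and 10 counts in edited hearts. Zbp1, a sensor of left-handed Z-form nucleic acid, had 6, 6 and 5 counts against 7, 3 and 6. At this depth a moderate change in either gene was not detectable in these libraries.

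Among the effectors that block translation or degrade RNA, the IFIT genes gave the single call. They lie in 1 cluster on chromosome 19 of mm10, with Ifit3b between Ifit3 and Ifit1: Ifit2 is at 34550549 to 34576534, Ifit3 at 34583142 to 34588982 and Ifit1 at 34640889 to 34650009, each on the plus strand. IFIT proteins bind foreign RNA or restrain its translation. Ifit2 was at 15.0, 13.7 and 13.1 CPM in controls and 16.4, 19.5 and 17.7 CPM in edited hearts, so its groups did not overlap. The mean rose from 13.9 ± 0.94 to 17.8 ± 1.54 CPM (SD, n = 3), a log2 change of 0.35 (SE 0.09, interval 1.12-fold to 1.46-fold; adjusted p = 0.0251, edgeR). The estimate was positive under each of 15 alternatives, from 0.29 to 0.42, but the call held in 7 of them. The adjusted p was above the threshold when control 2 (0.0713), control 3 (0.147), edited 2 (0.0598) or edited 3 (0.0749) was left out, and with DESeq2 (0.0613). Neither dropping controls 1 and 3 together, which leaves 1 control, nor a Myl7 covariate (0.328) kept the call. In the fit with that covariate, 126 of 14879 genes were called in all.

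The neighbours of Ifit2 were much scarcer. Ifit1 was at 1.97, 1.26 and 1.04 CPM in controls and 1.62, 1.47 and 2.23 CPM in edited hearts. Ifit3 was at 2.33, 3.00 and 2.40 CPM against 2.30, 3.62 and 2.96 CPM. Both overlapped, and neither passed edgeR's threshold (log2 0.32, SE 0.28, and 0.18, SE 0.21; adjusted p 0.530 and 0.651). Per kilobase of exon in controls, Ifit2 was at 3.16 CPM, Ifit3 at 0.968 CPM and Ifit1 at 0.541 CPM. Ifit3 is uncertain in these counts, because 51.2% of the 50-base windows of its GENCODE M21 transcripts also occur in another gene, mostly Ifit3b. The same was true of Oas1a, with 57.6% of its windows in another gene, mostly Oas1g.

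The OAS enzymes make short oligoadenylates that signal RNA breakdown. Oas2 was at 3.35, 2.37 and 3.13 CPM in controls and 1.75, 1.92 and 2.62 CPM in edited hearts, with edited 3 above control 2. Its log2 change of -0.50 (SE 0.22) was the most negative estimate among the members and did not pass (adjusted p = 0.177, edgeR). Without controls 1 and 3 that estimate was -0.19. Oas1a had a log2 change of -0.20 (SE 0.25) and Oasl2 0.10 (SE 0.13). Oas3 had 1 to 4 counts in each library and was not tested. Eif2ak2 (PKR), a kinase that halts translation when it binds double-stranded RNA, was at 16.1, 15.2 and 14.9 CPM in controls and 16.2, 12.8 and 15.4 CPM in edited hearts, with overlap (log2 -0.05, SE 0.10).

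Adar, Samhd1 and Rsad2 act on RNA bases or nucleotide pools. Adar, the cell's own enzyme for deaminating adenosine in double-stranded RNA, was at 33.3, 33.2 and 30.6 CPM in controls and 38.6, 33.6 and 31.5 CPM in edited hearts. Edited 1 was the highest library and the others overlapped (log2 0.10, SE 0.08). Samhd1, which breaks down deoxynucleotides, had a log2 change of 0.02 (SE 0.07). Rsad2 (viperin) makes a chain-terminating nucleotide. It was at 18.0, 15.0 and 17.1 CPM in controls and 13.1, 13.1 and 17.6 CPM in edited hearts, where edited 3 fell among the controls (log2 -0.19, SE 0.12; adjusted p = 0.347, edgeR).

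Isg15, the ubiquitin-like modifier that interferon induces strongly, could not be followed. It had 0, 0 and 1 counts in controls and 3, 0 and 0 counts in edited hearts. In the annotation of the deposited table, 85.0% of its exon bases (chromosome 4, 156199424 to 156200818 in mm10, minus strand) also belong to LOC108168990 on the opposite strand, which had 1 to 5 counts in each library. How reads that overlap more than 1 gene were treated, and whether counting used strand, is not given in the sources used here, so these counts need not reflect Isg15 RNA. Usp18, the protease that removes ISG15 and damps the interferon receptor, was at 2.99, 2.95 and 2.82 CPM in controls and 2.64, 2.71 and 2.90 CPM in edited hearts. The groups overlapped (log2 -0.09, SE 0.17; adjusted p = 0.812, edgeR).

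Genes that block entry, uncoating or release were led by Ifitm3, which hinders fusion of viruses in endosomes. Ifitm3 was at 49.9, 46.1 and 44.2 CPM in controls and 41.4, 49.9 and 46.5 CPM in edited hearts. Bst2 (tetherin), which holds budding viruses at the cell surface, was at 20.9, 17.6 and 18.7 CPM against 16.1, 18.7 and 17.5 CPM. Both overlapped (log2 -0.03, SE 0.08, and -0.13, SE 0.09). Rtp4, an interferon-stimulated gene listed beside them without a stated part in entry, was highest in edited 3 at 6.87 CPM. It was lowest in edited 1 at 4.09 CPM, with the controls between 4.79 and 5.53 CPM. Mx2, a dynamin-like GTPase, had a log2 change of 0.17 (SE 0.24). Mx1, which many laboratory mouse strains carry in a defective form, had 3, 4 and 4 counts in controls and 7, 7 and 5 counts in edited hearts and was not tested.

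The interferon-inducible GTPases, which attack membranes around intracellular microbes, had 0 of 5 genes called by edgeR and 1 at an unadjusted p below 0.05 (Igtp). Igtp was at 10.2, 11.1 and 10.4 CPM in controls and 9.81, 7.69 and 8.26 CPM in edited hearts, without overlap. Its log2 change of -0.29 (SE 0.11) did not pass with all libraries (adjusted p = 0.121, edgeR) and passed without edited 1 (-0.41, adjusted p = 0.0411). Igtp shares 11.8% of its 50-base windows with another gene, mostly Irgm2, which had a log2 change of -0.08 (SE 0.10). Irgm1 was tightly spread at 15.97, 16.38 and 16.13 CPM in controls and 16.42, 16.96 and 17.42 CPM in edited hearts, a log2 change of 0.07 (SE 0.08; adjusted p = 0.657, edgeR). Gbp2, Gbp3 and Gbp7, which neighbour each other on chromosome 3, had log2 changes of -0.11, -0.16 and 0.11, with SE of 0.11, 0.09 and 0.11 and overlapping groups.

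The remaining members include the ADP-ribosyltransferase family proteins Parp9 and Parp14. Parp9 was at 22.3, 23.8 and 22.1 CPM in controls and 25.7, 24.9 and 29.3 CPM in edited hearts, and the groups did not overlap. The log2 change was 0.23 (SE 0.08; adjusted p = 0.0852, edgeR). It passed with limma voom (0.29, adjusted p = 0.0251) and without edited 2 (0.27, adjusted p = 0.0400), and was 0.16 without controls 1 and 3. Parp9 shares 8.51% of its exon bases with Dtx3l, the gene of its partner protein on the opposite strand. Dtx3l itself had a log2 change of 0.09 (SE 0.07). Parp14 had 0.12 (SE 0.08), Ifi35 0.10 (SE 0.10), the apoptosis factor Xaf1 -0.06 (SE 0.11) and Ifi44 -0.26 (SE 0.22). Their groups overlapped.

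The members were also split by an exact match to the response element core in the searched promoter window. Among tested members with a promoter in the table, the 16 with the core had a median log2 change of -0.06, with 5 above 0 and 0 called by edgeR. The 13 without it had a median of -0.01, with 6 above 0 and 1 called (Ifit2). Over all tested genes, 9.66% were called. Tested members without a promoter in the table, Parp9, Oas2 and Dhx58 among them, are in neither set.

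The rest of the pathway was read from 5 lists holding 115 further genes, of which 91 were tested. In edgeR's test 2 were called higher and 2 lower (4.40%, beside 9.66% of all tested genes). The 20 interferon genes themselves had 0 counts in 4 libraries, 1 count in control 3 and 2 counts in edited 1. In the list of 15 receptors, kinases and feedback genes, Ifngr2 fell and Ifnlr1 rose. Ifngr2, a chain of the type II interferon receptor, was at 185, 188 and 187 CPM in controls and 148, 148 and 144 CPM in edited hearts. The groups stood well apart, with a log2 change of -0.35 (SE 0.05; adjusted p = 0.00089, edgeR). The estimate lay between -0.36 and -0.32 in 15 alternatives, and the call was lost without controls 1 and 3 (adjusted p = 0.0870). Summed cardiomyocyte markers fell between the same groups, and their part in this value was not tested.

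The other receptor chains did not pass. Ifngr1, the partner chain, had a log2 change of -0.12 (SE 0.06; adjusted p = 0.239, edgeR), Ifnar1 0.10 (SE 0.05), Ifnar2 0.01 (SE 0.07) and Il10rb -0.10 (SE 0.05). Ifnlr1, the type III interferon receptor, was at 6.40, 5.79 and 6.68 CPM in controls and 7.93, 9.73 and 7.99 CPM in edited hearts (log2 0.44, SE 0.12; adjusted p = 0.0410, edgeR). For Ifnlr1 the adjusted p exceeded the threshold when control 1 (0.105), control 2 (0.124), control 3 (0.111), edited 2 (0.110) or edited 3 (0.0758) was dropped, with DESeq2 (0.117), when controls 1 and 3 were dropped together (0.300) and with Myl7 as a covariate (0.176). Jak1, Jak2, Socs3 and Pias1 had log2 changes of -0.03, 0.07, 0.05 and -0.02. Tyk2 and Socs1 had 0.21 (SE 0.07) and 0.51 (SE 0.22), and the phosphatases Ptpn2 and Ptpn6 -0.19 (SE 0.07) and -0.24 (SE 0.13), each with groups that did not overlap and no call by edgeR. Groups did not overlap for 60% of the 15 genes of this list, Ifnar1 and Il10rb among them, beside 29.3% of all tested genes.

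Among 23 sensing adaptors, kinases and nucleases, the genes of smallest p included 3 that did not pass. Irf2, Ikbke and Rnaseh2b had log2 changes of 0.17, 0.37 and 0.16 with adjusted p from 0.166 to 0.219. Of 42 tested members of a further interferon-stimulated list, Slfn5 fell, from 123, 122 and 122 CPM to 105, 95.1 and 96.9 CPM (log2 -0.31, SE 0.05; adjusted p = 0.0035, edgeR; 0.196 for Slfn5 when controls 1 and 3 were dropped and 0.121 with Myl7 as a covariate). Pml, Iigp1 and Trim21 had log2 changes of 0.21, -0.33 and 0.34 and did not pass with the main settings. Pml passed with upper-quartile scaling (adjusted p = 0.0491, edgeR) and with limma voom (0.0331). Iigp1 passed with no filter (adjusted p = 0.0272, edgeR) and without edited 3 (0.0238). Pml and Iigp1 each stayed uncalled in 13 of 15 alternatives. Of 11 entry factors of adeno-associated virus, edgeR called 0 at the threshold, and 1 had an unadjusted p below 0.05, Tm9sf2 (log2 -0.13, SE 0.05). The virus receptor gene AU040320 had 0.03 (SE 0.06).

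**Figure D5:**
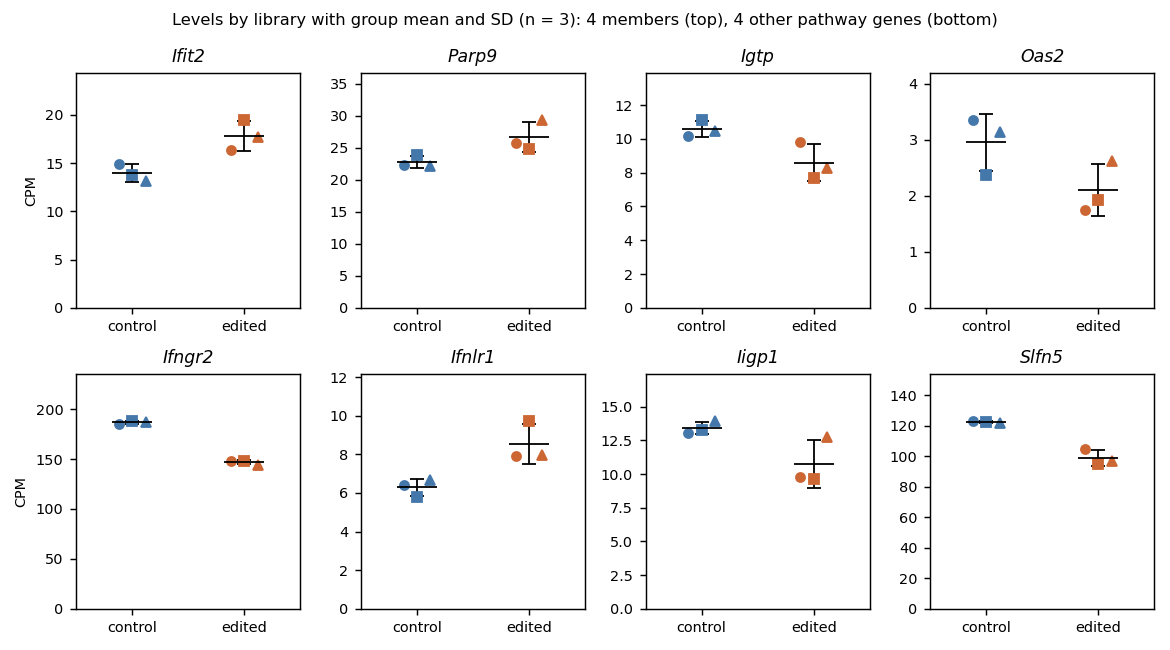
CPM in each library (circle, square and triangle for libraries 1, 2 and 3), with the mean and SD of each group as black bars (n = 3), for the members Ifit2, Parp9, Igtp and Oas2 (top) and the other pathway genes Ifngr2, Ifnlr1, Iigp1 and Slfn5 (bottom). The groups are separate in every panel except Oas2, and the gap is wide relative to the spread for Ifngr2.

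Many of these genes are also expressed by blood and immune cells, so markers of those and other heart cells were set beside them. Of 11 tested macrophage and monocyte markers, 10 had estimates below 0, and Ccr2 was above 0 (log2 0.86, SE 0.48). EdgeR called 0 of them, beside 9.66% of all tested genes. At an unadjusted p below 0.05 there were 5 (45.5% had groups without overlap), beside 24.4% of all tested genes (29.3% without overlap). Their summed level was 154 to 166 CPM in controls and 137 to 152 CPM in edited hearts, and its part in the members' values was not tested. Summed T and NK cell markers were at 1.74 to 3.03 CPM in controls and 2.07 to 4.05 CPM in edited hearts, and neutrophil markers at 2.63 to 3.00 and 2.52 to 5.09 CPM. Among neutrophil genes, Ly6g was at 0 counts in every library. S100a9 was at 0.718, 0.527 and 0.835 CPM in controls and 0.938, 1.81 and 1.01 CPM in edited hearts. It was higher in every edited library but not called (log2 0.83, SE 0.34; adjusted p = 0.145, edgeR). Groups did not overlap, in either direction, for 29.3% of all tested genes. The other tested neutrophil genes, S100a8 and Csf3r, had log2 changes of 0.25 (SE 0.61) and -0.04 (SE 0.27), with overlapping groups. Among mesothelial markers, of the heart's outer lining, Msln, Upk1b, Krt19 and Lrrn4 rose and Wt1 fell. EdgeR called these 5 of 6 genes (83.3%), beside 9.66% of all tested genes. Msln had a log2 change of 1.91 (SE 0.22) and Upk1b 2.50 (SE 0.38). The summed mesothelial level was 26.9 to 27.3 CPM in controls and 29.4 to 50.5 CPM in edited hearts. Of 7 fibroblast markers, Lum rose (log2 0.26, SE 0.06; adjusted p = 0.0182, edgeR), and the estimates of 7 of 7 were above 0. The call of Lum is 14.3% of this list, beside 9.66% of all tested genes. Their sums overlapped, at 3381 to 4072 CPM in controls and 3985 to 5491 CPM in edited hearts. The part of these lists in the members' values was not tested. Endothelial markers summed to 1786 to 1830 CPM in controls and 1703 to 1811 CPM in edited hearts. Of 8 endothelial genes edgeR called 0, and 0 had an unadjusted p below 0.05, beside 9.66% and 24.4% of all tested genes.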

How the data were processed

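RNA of 6 mouse heart libraries, 3 per group, was analysed from 1 table of read counts. The authors deposited raw counts per gene, not normalized. The tools that the submitters' processing notes name are featureCounts, STAR, cutadapt and FastQC, with build mm10; no version or setting stands in the sources used here. Each library has 2 columns with equal values (0 genes differed), counted as 1 library. The members and lists were chosen with earlier results of these data known. Every member is described, with pathway genes that passed, receptor and kinase genes, and up to 4 genes of smallest p per list. Per the labels, replicate numbers 1 to 3 recur in both groups.

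Genes passing filterByExpr (14879) were scaled by TMM and compared with edgeR 4.0.16's quasi-likelihood test (robust; R 4.3.3), Benjamini-Hochberg adjusted over all tested genes, with glmTreat for 1.5-fold. Intervals use the fit's SE and degrees of freedom. Medians by library use log2(CPM + 0.5). DESeq2 1.42.0, limma 3.58.1, other scalings and filters, the replicate block and leaving out each library were alternatives. The steps were tested on simulated counts. Within groups the chi-square per degree of freedom between libraries was at least 3.95, so none looked like the same library sequenced again. This does not show that the libraries came from separate animals. Some pathway genes are not reported here, although they are included in the counts over lists.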

Additional observations from a re-analysis of the deposited data

How the results depend on the processing

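The number of members called higher was 0 with DESeq2's Wald test, 2 with limma voom (Ifit2 and Parp9), and 0 to 1 when each library was left out in turn. It was 0 with Myl7 as a covariate. Over all genes, 1269 were called with DESeq2, 2285 with voom, 386 to 1661 with each library left out and 126 of 14879 with the covariate, against 1438. The covariate and the fit without controls 1 and 3 were added after the data were seen. That fit leaves 1 control library, so a call lost in it need not concern the gene itself. Members called lower numbered 0 to 1 when each library was left out (Igtp without edited 1). Of the other pathway genes 7 were called with voom, 2 to 4 with each library left out (2 without control 1 and 2 without control 3) and 1 with Myl7 as a covariate. The log2 change of Camk2d was -0.62 without controls 1 and 3, where it was no longer called. The median over members lay between -0.06 and 0.02 over 15 alternatives, each less than the SD of the library medians (0.052) away from the value of -0.02 with all libraries. Of 540 single-member values under alternatives, 529 stayed on their side of the threshold, 8 lost a call and 3 gained one; 36 uncalled estimates changed sign. With the replicate number as a block, 0 members were called higher and Ifit2 had an adjusted p of 0.0537, as Ifnlr1 had of 0.0767; 1077 genes were called in all, against 1438 without the block. Deviations of same-numbered libraries correlated at 0.00388, -0.113 and -0.0808, and 0 of 6 libraries correlated best with their own number. With 3 libraries per group, this cannot exclude a batch shared by libraries of the same number. Depth limits Tlr9, Zbp1, Oas3 and Mx1, which had at most 11 counts in any library. Isg15 had at most 3, and these need not reflect its RNA because of its overlap with LOC108168990.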
